A study of Homo sapiens with 9 samples.

Results

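Transforming growth factor-beta (TGF-beta) genes were followed in H1299 cells after depletion of FIBP. The 9 genes were chosen by name from the deposited transcript tables: the ligands TGFB1 and TGFB2, the receptors TGFBR1, TGFBR2 and TGFBR3, and the intracellular mediators SMAD2, SMAD3, SMAD4 and SMAD7. They were 9 of 60966 genes and 90 of 244443 transcripts. Each gene's level was the sum of its transcripts in FPKM, sequenced fragments scaled by transcript length and by library size, so that genes can be compared with each other. H1299 is an established line from a human lung carcinoma of the non-small cell type. Cells received a scrambled control siRNA (Scramble) or 1 of the siRNAs against FIBP (Si-FIBP#1, Si-FIBP#2), all at 100 nM, and RNA was taken after 48 h. There were 3 samples per group, the labels mention no irradiation, and all came from the same line. The study's methods describe its experiments in general as independently repeated, but no label says whether the samples of a group were separate cultures, so the p-values can be taken to measure only the spread between these samples, which may be technical.

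TGF-beta ligands are made as precursors that stay latent until they are released outside the cell. The active ligand binds the type II receptor TGFBR2, which phosphorylates the type I receptor TGFBR1. TGFBR3, or betaglycan, is a co-receptor that helps to present the ligand, above all TGFB2. TGFBR1 then phosphorylates SMAD2 and SMAD3, which bind the shared partner SMAD4 and act on genes in the nucleus, while SMAD7 is an inhibitory SMAD that pathway activity induces. In lung cancer cells the pathway is known both for slowing proliferation and for driving mesenchymal change and invasion.

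TGFBR2 was the member that changed most. Its level rose from a mean of 17.9 FPKM in Scramble to 46.3 in the Si-FIBP#1 group, then 48.7 in the Si-FIBP#2 group. TGFB1 fell with Si-FIBP#1, TGFBR1 rose with Si-FIBP#1, TGFBR3 and SMAD4 fell with Si-FIBP#2, and SMAD7 fell with Si-FIBP#1. With both siRNAs together TGFB1, TGFBR3 and SMAD7 fell and TGFBR1 rose. Of these genes only TGFB1 differed between the siRNAs, and that difference was lost under 9 of 18 alternatives. The falls of SMAD4, of SMAD7, and of TGFBR3 with both siRNAs were lost when some single samples were left out. Of the target genes that TGF-beta can induce, 9 of 15 tested were lower and 2 were higher with both siRNAs considered jointly, beside 20.3% and 32.6% of all genes. The 9 include CDKN1A, which fell with Si-FIBP#1 and rose with Si-FIBP#2, a rise that was lost under 7 of 18 alternatives. The target list was chosen with earlier results of these data known, so its counts are a description only.

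FIBP itself, the siRNA target, had 88.38, 79.49 and 77.74 FPKM in the Scramble samples and 4.30 to 8.21 FPKM in the 6 FIBP-depleted samples. The labels thus held for depleted against Scramble samples, but the FIBP level cannot tell which siRNA a sample received. Relative to the Scramble mean, 7.96% was left in Si-FIBP#1 cells and 8.66% in Si-FIBP#2 cells. The libraries held an estimated 20000000 to 23850000 fragments. Genes at or above 1 FPKM numbered 13894 to 14124 in Scramble and 14406 to 14715 in the depleted samples, so this number moved with the groups compared. The mesenchymal gene VIM (1592 to 3369 FPKM) and the keratins KRT8 and KRT18 were high in all 9 samples, CDH1 was listed at 0 and EPCAM at no more than 0.28 FPKM. Leukocyte, endothelial and alveolar markers (PTPRC, CD3E, PECAM1, VWF, SFTPC, SFTPB) stood at no more than 0.27 FPKM, but the macrophage marker CD68, which many cell lines also transcribe, had 31.0 to 67.0 FPKM.

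Of 60966 genes, 14985 reached 1 FPKM in at least 3 samples and were tested with limma on log2(FPKM + 1). All fold changes below are on this scale, which understates changes of low genes. A gene is said to have risen or fallen where the adjusted p was below 0.05, and to have been called where it also changed more than 2-fold. All 9 members were tested, and their lowest value in any sample was 1.51 FPKM. With Si-FIBP#1, 2 members rose and 2 fell, beside 27.8% of all genes tested that rose and 19.9% that fell. With Si-FIBP#2, 1 rose and 2 fell, beside 31.1% and 17.7%. With both siRNAs together against Scramble, 2 rose and 3 fell, beside 32.6% and 20.3%. In this main fit the numbers of members that passed were therefore near the background of all genes. They also moved with the settings and with single samples. The 2 that fell with Si-FIBP#1 became 1 without Scramble replicate 2 or 3 or Si-FIBP#1 replicate 2 or 3, and 4 without Si-FIBP#2 replicate 2. The 2 that fell with Si-FIBP#2 became 1 without Scramble replicate 2 or 3. TGFBR2 alone was called with each siRNA. The background of higher calls was 2.55% for Si-FIBP#1 against 2.92% for Si-FIBP#2, and that of lower calls, of which the members had 0, was 3.11% and 2.13%.

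In 2 members, TGFBR1 and TGFBR2, all 6 FIBP-depleted samples lay above all 3 Scramble samples, which was also true of 26.3% of all genes. In 2 others, TGFB1 and SMAD7, all 6 lay below, as in 16.5% of all genes. The groups overlapped in the other 5 members. The median log2 fold change of the members was -0.20 for Si-FIBP#1 against -0.15 for Si-FIBP#2, where the median of all genes was 0.07 and 0.11. Median ratio scaling moved the latter to 0.01 and 0.01, and changes of the members are to be read against that shift. Positions given below are those of GENCODE release 29 on GRCh38. Both siRNA comparisons used the same Scramble samples and are not independent of each other. In bulk RNA, a change in the cells present and a change in the RNA of each cell cannot be told apart.

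**Figure D1:**
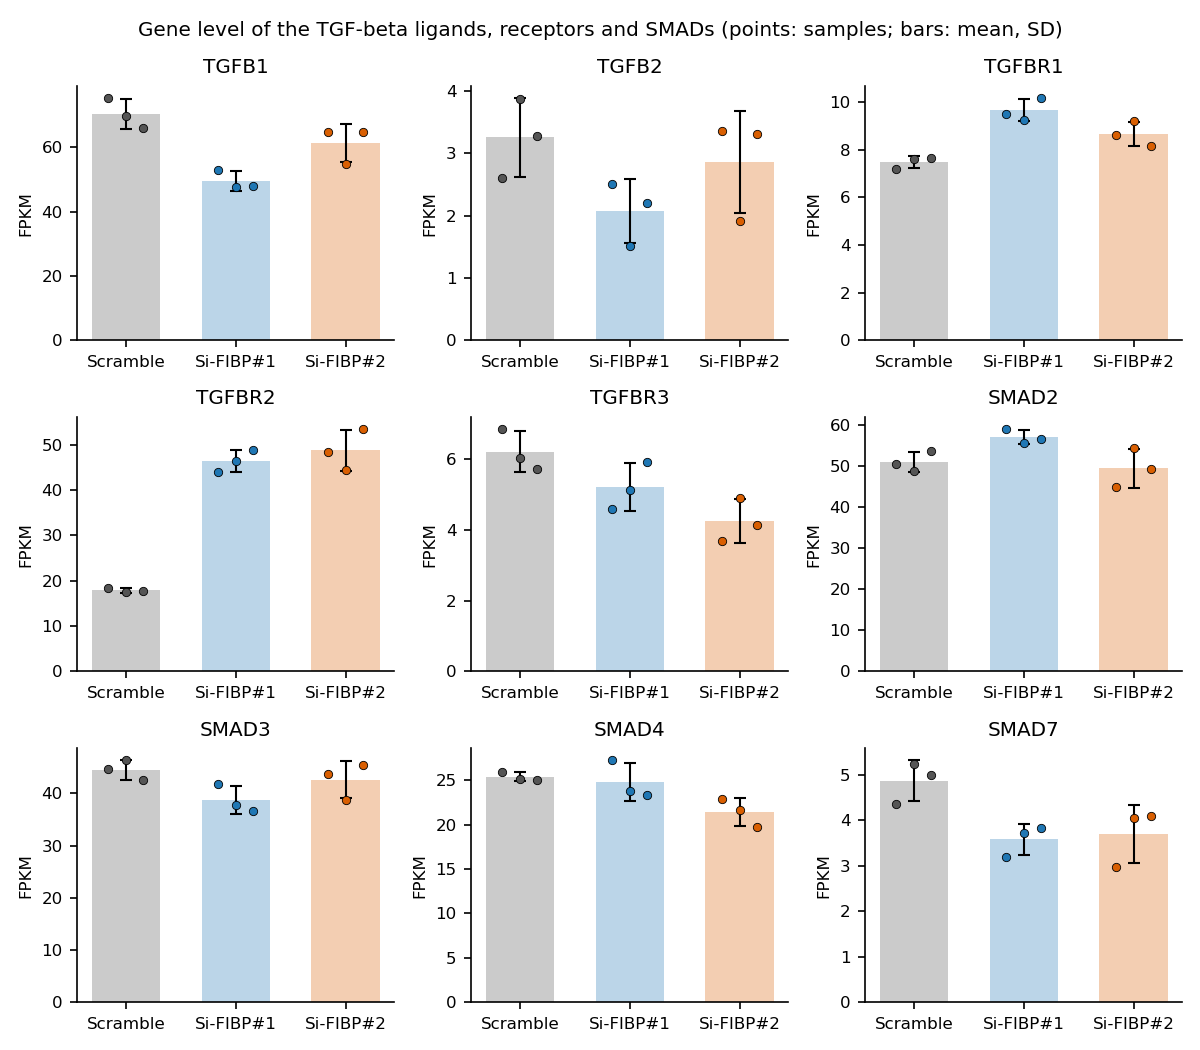
FPKM of each of the 9 genes (vertical axis, from 0) in the Scramble, Si-FIBP#1 and Si-FIBP#2 groups, with 1 point per sample, bars for the group mean and lines for the SD of 3 samples. TGFBR2 stood at 17.41 to 18.39 FPKM in Scramble and at 43.90 to 53.40 FPKM in the 6 FIBP-depleted samples.

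TGFB1 (ENSG00000105329, minus strand of chromosome 19, 41301587 to 41353911), the most widely expressed TGF-beta ligand, had the highest level of the 9 genes in Scramble. It measured 75.19, 69.63 and 66.03 FPKM in Scramble, 52.98, 47.62 and 47.84 in the Si-FIBP#1 group, then 64.62, 54.59 and 64.57 in the Si-FIBP#2 group. Every FIBP-depleted sample was below every Scramble sample, and the Si-FIBP#1 samples were the lowest. TGFB1 fell by 0.50 with Si-FIBP#1 (SE 0.081, adjusted p = 7.77e-04), to 70.4% of Scramble. With both siRNAs together TGFB1 fell by 0.35 (adjusted p = 0.0023). For Si-FIBP#2 the value was -0.20 (95% interval -0.38 to -0.02, adjusted p = 0.0675), and this became a fall when samples were scaled by median ratio (-0.32, adjusted p = 0.0101) or with length-weighted sums (-0.24, adjusted p = 0.0156). The siRNAs differed directly, by 0.30 (95% interval 0.12 to 0.48, adjusted p = 0.0347). In that contrast 15.4% of all genes passed, and the difference missed the threshold under 9 of 18 alternatives. It missed without Scramble replicate 2, Si-FIBP#1 replicate 2 or 3, or Si-FIBP#2 replicate 1 or 3, with differences of 0.26 to 0.30 and adjusted p of 0.0546 to 0.119.

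TGFB2 (ENSG00000092969, chromosome 1, 218346235 to 218444619), a ligand that depends more on the co-receptor, was the lowest of the 9 genes. Its values were 2.61, 3.87 and 3.28 FPKM in Scramble, 2.51, 1.51 and 2.20 in the Si-FIBP#1 group, then 3.35, 1.92 and 3.31 in the Si-FIBP#2 group. The Si-FIBP#1 samples lay below Scramble, whereas the Si-FIBP#2 samples overlapped it. Log2 fold changes were -0.47 for Si-FIBP#1 (SE 0.19, adjusted p = 0.0712), compared with -0.15 for Si-FIBP#2 (adjusted p = 0.546), and neither passed. Without Si-FIBP#2 replicate 2 these values were -0.47 (adjusted p = 0.0343) and 0.04 (adjusted p = 0.883).

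TGFBR2, the type II receptor that binds the ligand, showed 18.39, 17.41 and 17.83 FPKM in Scramble. With Si-FIBP#1 it showed 43.90, 46.37 and 48.76 FPKM, and with Si-FIBP#2 48.43, 44.38 and 53.40 FPKM. The lowest depleted sample was far above the highest Scramble sample, and the siRNA groups overlapped each other. TGFBR2 rose by 1.33 in Si-FIBP#1 cells (SE 0.073, adjusted p = 1.17e-06) and by 1.39 in Si-FIBP#2 cells (SE 0.073, adjusted p = 1.27e-06), or 2.59-fold and 2.73-fold in FPKM. The siRNAs differed by 0.07 (95% interval -0.10 to 0.23, adjusted p = 0.585). Under every alternative run, the rise ranged from 1.25 to 1.37 (Si-FIBP#1) and from 1.28 to 1.46 (Si-FIBP#2).

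TGFBR1 (ENSG00000106799, chromosome 9, 99104038 to 99154192), the type I receptor kinase, measured 7.19, 7.60 and 7.67 FPKM in Scramble. It measured 9.52, 9.27 and 10.17 FPKM in the Si-FIBP#1 group, then 8.61, 9.20 and 8.18 FPKM in the Si-FIBP#2 group. All depleted samples were above all Scramble samples, by much less than for TGFBR2. TGFBR1 rose by 0.33 with Si-FIBP#1 (SE 0.073, adjusted p = 0.00477). Its log2 fold change was 0.19 with Si-FIBP#2 (adjusted p = 0.0588). With both siRNAs together TGFBR1 rose by 0.26 (adjusted p = 0.00704). The siRNAs differed by -0.14 (95% interval -0.30 to 0.02, adjusted p = 0.232). The ratio of TGFBR2 to TGFBR1, both in FPKM, was 2.29 to 2.56 in Scramble, 4.61 to 5.00 in the Si-FIBP#1 group, then 4.82 to 6.53 in the Si-FIBP#2 group.

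TGFBR3 (ENSG00000069702, chromosome 1, 91680343 to 91906335), the co-receptor betaglycan, went the other way. Scramble had 6.84, 6.03 and 5.72 FPKM, Si-FIBP#1 had 4.59, 5.12 and 5.92, and Si-FIBP#2 had 3.67, 4.90 and 4.14. The Si-FIBP#2 samples were all below Scramble, and 1 Si-FIBP#1 sample overlapped it. TGFBR3 fell by 0.46 with Si-FIBP#2 (SE 0.12, adjusted p = 0.00973) and its log2 fold change was -0.22 with Si-FIBP#1 (adjusted p = 0.164). Much of this level belonged to a transcript the authors assembled, MSTRG.1274.3, which held 58.3% of the TGFBR3 sum in Scramble. When annotated transcripts alone were summed, the value for Si-FIBP#2 was -0.12 (adjusted p = 0.747), which did not pass. With both siRNAs together TGFBR3 fell by 0.34 (adjusted p = 0.0195). That fall was lost without Scramble replicate 1 (-0.275, adjusted p = 0.0852), with no filter (-0.339, adjusted p = 0.051) and with annotated transcripts alone (-0.109, adjusted p = 0.735).

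**Figure D2:**
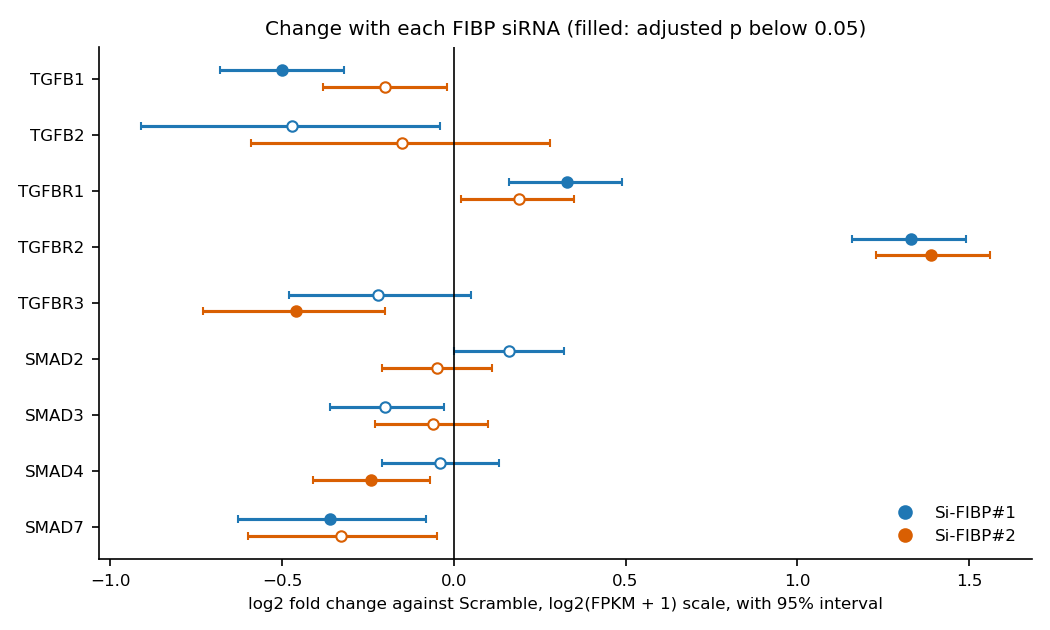
Log2 fold change of each of the 9 genes against Scramble (horizontal axis, log2(FPKM + 1) scale) with its 95% interval, in blue for Si-FIBP#1 and orange for Si-FIBP#2, where filled points have an adjusted p below 0.05. TGFBR2 stands apart at 1.33 and 1.39, and the other 8 genes lie between -0.50 and 0.33.

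Among the receptor-regulated SMADs, SMAD2 and SMAD3 showed no gene-level change that passed in FPKM sums, though some passed under alternatives. SMAD2 (ENSG00000175387, chromosome 18, 47808957 to 47931146) had 50.57, 48.87 and 53.67 FPKM in Scramble, 58.98, 55.71 and 56.59 in the Si-FIBP#1 group, then 44.85, 54.32 and 49.18 in the Si-FIBP#2 group. The Si-FIBP#1 samples lay above Scramble, and the Si-FIBP#2 samples lay on both sides of it. The log2 fold changes were 0.16 (adjusted p = 0.0937) and -0.05 (adjusted p = 0.611). With both siRNAs together the value was 0.06, and it turned to -0.04 under median ratio scaling. Without Si-FIBP#2 replicate 2, SMAD2 passed with Si-FIBP#1 (0.16, adjusted p = 0.038) and between the siRNAs (-0.28, adjusted p = 0.0163). With length-weighted sums SMAD2 fell by 0.15 with Si-FIBP#2 (adjusted p = 0.0253) and differed by -0.22 between the siRNAs (adjusted p = 0.00737), and under median ratio scaling that difference was -0.25 (adjusted p = 0.0374). Transcripts of 828 nt (ENST00000586514) and 1971 nt (ENST00000586040) carried 44.3% and 41.0% of the SMAD2 sum in Scramble, while the transcript of 12075 nt, ENST00000402690, carried 6.86%.

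SMAD3 had 44.58, 46.30 and 42.58 FPKM in Scramble, 41.77, 37.81 and 36.63 in the Si-FIBP#1 group, then 43.78, 38.69 and 45.39 in the Si-FIBP#2 group. The Si-FIBP#1 samples were below Scramble, and the Si-FIBP#2 samples overlapped it. The log2 fold changes of -0.20 (adjusted p = 0.0536) and -0.06 (adjusted p = 0.517) did not pass. The value for Si-FIBP#1 passed under 7 of 18 alternatives. When each transcript was weighted by its length, so that the sum follows fragments rather than molecules, SMAD3 fell by 0.30 in Si-FIBP#1 cells (adjusted p = 0.00159) and by 0.20 in Si-FIBP#2 cells (adjusted p = 0.0191). The value for Si-FIBP#1 also passed in TPM (-0.24, adjusted p = 0.0218), with a 5 FPKM filter (-0.20, adjusted p = 0.0461), in a fit of only the groups compared (-0.20, adjusted p = 0.0361), without Si-FIBP#1 replicate 1 (-0.25, adjusted p = 0.0299), without Si-FIBP#2 replicate 2 (-0.20, adjusted p = 0.024) and under median ratio scaling (-0.28, adjusted p = 0.0172).

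SMAD4 (ENSG00000141646, chromosome 18, 51028394 to 51085045), the common partner, had 25.95, 25.15 and 25.04 FPKM in Scramble, 27.24, 23.74 and 23.36 in the Si-FIBP#1 group, then 22.86, 21.61 and 19.75 in the Si-FIBP#2 group. The Si-FIBP#2 samples were all below Scramble, and the Si-FIBP#1 samples lay around it. SMAD4 fell by 0.24 with Si-FIBP#2 (SE 0.076, adjusted p = 0.0264), and its log2 fold change was -0.04 with Si-FIBP#1 (adjusted p = 0.722). The fall was lost without any 1 of the Scramble replicates or without Si-FIBP#2 replicate 3, at -0.25 to -0.18 and adjusted p of 0.0556 to 0.0967. Of the SMAD4 sum in Scramble, 25.7% and 21.8% belonged to ENST00000611848 and ENST00000592186, annotated as targets of nonsense-mediated decay. With Si-FIBP#2, ENST00000611848 fell by 0.43 (adjusted p = 0.0299), while the coding transcripts ENST00000342988 (-0.47, adjusted p = 0.0692) and ENST00000398417 (0.15, adjusted p = 0.405) did not pass. That fall was lost without Scramble replicate 2 or 3 or Si-FIBP#2 replicate 2 or 3. With both siRNAs together ENST00000342988 fell by 0.47 (adjusted p = 0.0366) and ENST00000611848 by 0.39 (adjusted p = 0.0203). Without Scramble replicate 1 or 2, only 1 member transcript fell with both siRNAs, so these falls did not both hold. For the gene, the siRNAs differed by -0.20 (95% interval -0.37 to -0.03), which did not pass (adjusted p = 0.107).

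SMAD7 (ENSG00000101665, chromosome 18, 48919853 to 48952052), the inhibitory SMAD, was low in all samples. It had 4.36, 5.24 and 4.99 FPKM in Scramble, 3.20, 3.71 and 3.83 in the Si-FIBP#1 group, then 2.97, 4.04 and 4.09 in the Si-FIBP#2 group. All 6 depleted samples were below all Scramble samples. SMAD7 fell by 0.36 with Si-FIBP#1 (SE 0.12, adjusted p = 0.0367) and its log2 fold change was -0.33 with Si-FIBP#2 (adjusted p = 0.0507). With both siRNAs together it fell by 0.34 (adjusted p = 0.0216), which was lost without Scramble replicate 2 (-0.29, adjusted p = 0.0905) or 3 (-0.32, adjusted p = 0.0713). The fall with Si-FIBP#1 missed the threshold without Scramble replicate 2 or 3 or without any 1 of the Si-FIBP#1 replicates, at -0.40 to -0.30 and adjusted p of 0.0514 to 0.114. The value for Si-FIBP#2 passed under median ratio scaling (-0.42, adjusted p = 0.0178), with length-weighted sums (-0.29, adjusted p = 0.0374), and without Scramble replicate 1 or Si-FIBP#2 replicate 2 or 3, at -0.39 to -0.38 and adjusted p of 0.0455 to 0.0485. Of the SMAD7 sum in Scramble, 55.3% belonged to ENST00000545051, a retained-intron transcript, and the coding transcript ENST00000262158 had 1.21 FPKM.

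The order of levels changed at TGFBR2 and, with Si-FIBP#1, at the top. In Scramble the order from high to low was TGFB1, SMAD2, SMAD3, SMAD4, TGFBR2, TGFBR1, TGFBR3, SMAD7 and TGFB2, and no neighbours in it overlapped between samples. With Si-FIBP#1, SMAD2 stood above TGFB1 and their ranges did not overlap. With both siRNAs TGFBR2 moved from place 5 to place 3, ahead of SMAD3 and SMAD4. There its range overlapped that of TGFB1 with Si-FIBP#1, and those of SMAD2 and SMAD3 with Si-FIBP#2. With Si-FIBP#2, the ranges of TGFBR3 and SMAD7, and of SMAD7 and TGFB2, also overlapped.

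Of the 90 transcripts of the 9 genes, 30 of 47662 transcripts tested across the genome could be tested. With both siRNAs together 5 of them rose and 4 fell, beside 13.0% and 11.0% of all transcripts tested. ENST00000552516 of TGFBR1, 1 of the 5, had 0.00, 0.25 and 0.19 FPKM in Scramble and entered the test only through depleted samples, so it had to be higher there. Without Scramble replicate 1 or 2, 3 rose and 1 fell, and without Si-FIBP#2 replicate 3, 3 rose. TGFBR2 (ENSG00000163513) is a plus-strand gene on chromosome 3, at 30606502 to 30694142. Its main transcript, ENST00000295754, had 10.51, 12.18 and 10.61 FPKM in Scramble, 28.05, 30.74 and 27.33 in the Si-FIBP#1 group, then 27.39, 26.72 and 30.58 in the Si-FIBP#2 group. Its log2 fold changes were 1.30 (adjusted p = 4.48e-05) and 1.27 (adjusted p = 5.1e-05).

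ENST00000359013, the TGFBR2 isoform with an additional coding exon, had 5.23, 3.10 and 3.97 FPKM in Scramble, 11.07, 11.76 and 10.16 in the Si-FIBP#1 group, then 12.42, 12.46 and 13.35 in the Si-FIBP#2 group. It rose by 1.25 (adjusted p = 6.26e-04) and 1.45 (adjusted p = 3.36e-04). ENST00000673203, which is not in release 29, rose by 1.24 with Si-FIBP#2 (adjusted p = 0.0356), and its log2 fold change was 0.95 with Si-FIBP#1 (adjusted p = 0.0835). Its rise with Si-FIBP#2 was lost in at least 1 fit that left out a single sample, where 3 rather than 4 member transcripts rose. The main transcript held 62.1% of the TGFBR2 sum in Scramble, 61.9% for Si-FIBP#1 against 57.9% for Si-FIBP#2, so the gene's rise was spread over its isoforms. No source says that the library kit kept strand, so TGFBR2 reads cannot be told apart from those of AC096921.1, which overlaps it on the opposite strand. The same holds for TGFB1 with CCDC97, HNRNPUL1, TMEM91 and AC011462.1, for SMAD3 with AC012568.1 and AC087482.1, for SMAD2 with AC120349.1 and AC120349.3, and for TGFBR1 with RNA5SP290. On the same strand, TGFB2 overlaps TGFB2-OT1, TGFBR3 overlaps RN7SL653P, SMAD4 overlaps AC091551.1, and SMAD2 overlaps AC120349.2 and MTCO2P2.

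SMAD3 (ENSG00000166949) is a plus-strand gene on chromosome 15, at 67063763 to 67195195. Its transcripts moved in opposite directions. The main transcript, ENST00000327367, starts at 67065845 and had 34.13, 33.00 and 31.35 FPKM in Scramble, 26.94, 25.62 and 25.08 in the Si-FIBP#1 group, then 29.68, 24.08 and 27.92 in the Si-FIBP#2 group. It fell by 0.33 with Si-FIBP#1 (adjusted p = 0.023), and its log2 fold change was -0.27 with Si-FIBP#2 (adjusted p = 0.0561). All depleted samples were below all Scramble samples. The fall with Si-FIBP#1 was lost without Scramble replicate 1 or 2, or without Si-FIBP#1 replicate 2 or 3, at -0.33 to -0.30 and adjusted p of 0.0686 to 0.0725.

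A shorter SMAD3 transcript, ENST00000439724, begins further downstream in the gene, at 67138001. It had 1.96, 1.28 and 1.56 FPKM in Scramble, 2.51, 3.53 and 3.14 in the Si-FIBP#1 group, then 5.13, 5.87 and 7.12 in the Si-FIBP#2 group, and the 3 groups did not overlap. It rose by 0.64 in Si-FIBP#1 cells (adjusted p = 0.0233) and by 1.44 in Si-FIBP#2 cells (adjusted p = 6.08e-04). Its share of the SMAD3 sum was 3.60% in Scramble, 7.90% for Si-FIBP#1 against 14.2% for Si-FIBP#2. The rise with Si-FIBP#1 was lost without Scramble replicate 2 or 3 or Si-FIBP#1 replicate 2 or 3, at 0.55 to 0.64 and adjusted p of 0.062 to 0.0808. The difference between the siRNAs, 0.79 (adjusted p = 0.0435), was lost without any 1 of the 9 samples, at 0.68 to 0.89 and adjusted p of 0.0531 to 0.147.

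Sequences before the RefSeq starts nearest to these start sites are shown for TGFBR2, the member with the greatest change, and for both SMAD3 starts, whose transcripts moved apart. The RefSeq start lies 99 nt from the release 29 start for ENST00000295754, 243 nt for ENST00000327367 and 20 nt for ENST00000439724. The bases just before the release 29 start of ENST00000327367 are therefore not shown. They are plus-strand RefSeq promoter sequences of GRCh38.p14, which begin 250 bases before the RefSeq start and are cut before the first start site of RefSeq or GENCODE release 29. Capitals mark the letters GGGCGG (the GC box) or TTCNNNGAA (a STAT motif), on either strand. The first spans chr3:30606351-30606501, the next chr15:67065352-67065601 and the last chr15:67137771-67138000.
TGFBR2: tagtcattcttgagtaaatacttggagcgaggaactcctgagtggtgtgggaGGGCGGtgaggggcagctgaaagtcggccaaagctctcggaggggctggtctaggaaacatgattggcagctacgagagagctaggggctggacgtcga
SMAD3, main start: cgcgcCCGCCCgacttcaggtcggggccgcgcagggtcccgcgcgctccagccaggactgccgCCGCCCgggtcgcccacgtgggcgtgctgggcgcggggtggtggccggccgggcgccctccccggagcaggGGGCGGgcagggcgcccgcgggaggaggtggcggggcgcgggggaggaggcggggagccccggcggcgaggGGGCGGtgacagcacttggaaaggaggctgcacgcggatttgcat
SMAD3, downstream start: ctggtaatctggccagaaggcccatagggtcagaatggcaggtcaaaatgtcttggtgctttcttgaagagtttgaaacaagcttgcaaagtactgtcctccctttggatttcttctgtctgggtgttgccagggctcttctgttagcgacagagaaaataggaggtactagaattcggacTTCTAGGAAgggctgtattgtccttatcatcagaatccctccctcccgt

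Over the whole windows, which run 50 bases past the RefSeq start, GC content was 61.7% for TGFBR2, 80.3% for the main SMAD3 start and 49.3% for the downstream start, with a median of 58.7% over 35116 promoter windows. The TGFBR2 window held 2 GC boxes and 1 AP-1 motif (TGANTCA), of which 1 GC box lies in the part shown. The main SMAD3 window held 5 GC boxes, 4 of them in the part shown, and no STAT motif. The downstream SMAD3 window held 1 STAT motif and no GC box. A GC box was in 45.0% of all windows, an AP-1 motif in 7.7% and a STAT motif in 7.7%. The palindromic SMAD motif GTCTAGAC, present in 0.2% of all windows, was in none of the windows of the 9 genes. These matches describe letters only, and binding was not measured.

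The other genes of the pathway were counted by role, with both siRNAs together against Scramble, where 32.6% of all genes rose and 20.3% fell. Of 17 other ligands and proteins of latency and activation, 10 were tested, of which 6 rose and 2 fell (median log2 fold change 0.25, beside 0.09 for all genes). LTBP1, which tethers latent TGF-beta to the matrix, had 3.77, 3.89 and 3.99 FPKM in Scramble and 8.61 to 13.25 FPKM in the depleted samples. All depleted samples were above Scramble, and LTBP1 rose by 1.30 (adjusted p = 1.8e-06). The integrin subunit ITGAV, which helps to release latent ligand, rose by 0.56 (adjusted p = 8.94e-04).

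THBS1, an extracellular protein that can activate latent TGF-beta, fell the furthest. It had 33.85, 31.78 and 29.86 FPKM in Scramble, 12.04, 9.02 and 8.77 in the Si-FIBP#1 group, then 3.56, 2.48 and 2.20 in the Si-FIBP#2 group. The groups were separate from each other, and the log2 fold changes of THBS1 were -1.60 (adjusted p = 2.56e-05) and -3.15 (adjusted p = 8.21e-07). GDF15, a stress-induced ligand of the family, fell by 0.64 (adjusted p = 0.0048), with 0.48 to 0.54 FPKM in Si-FIBP#1 and 1.39 to 2.68 FPKM in the other groups. It did not pass with Si-FIBP#2 alone (-0.16, adjusted p = 0.449). GDF11 rose by 0.33 (adjusted p = 0.0402; 0.21 and adjusted p = 0.241 with Si-FIBP#1 alone), but its value was -0.12 with length-weighted sums. The rise missed the threshold without Scramble replicate 1 or 3, Si-FIBP#1 replicate 1 or 2, or Si-FIBP#2 replicate 1 or 3, at 0.25 to 0.35 and adjusted p of 0.0536 to 0.165. It also missed in TPM (0.32, adjusted p = 0.0505) and under median ratio scaling (0.24, adjusted p = 0.124). The same held with no filter (0.33, adjusted p = 0.0984) and with annotated transcripts alone (0.33, adjusted p = 0.0612).

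Of 11 other receptors and co-receptors, 8 were tested, with 4 higher and 2 lower (median 0.15). ACVR1B, the activin type I receptor, rose by 0.38 (adjusted p = 8.90e-04), BMPR1B by 0.40 (adjusted p = 0.00857) and ACVR2A by 0.38 (adjusted p = 0.00196). Neither BMPR1B (0.31, adjusted p = 0.0517) nor ACVR2A (0.11, adjusted p = 0.331) passed with Si-FIBP#1 alone, and ACVR2A rose by 0.65 with Si-FIBP#2 (adjusted p = 2.21e-04). With annotated transcripts alone, ACVR2A did not pass (0.35, adjusted p = 0.067). The bone morphogenetic protein (BMP) receptor BMPR1A fell by 0.25 (adjusted p = 0.0053) and ACVR1 by 0.23 (adjusted p = 0.0174). With Si-FIBP#1 alone neither BMPR1A (-0.09, adjusted p = 0.313) nor ACVR1 (-0.18, adjusted p = 0.0892) passed. The fall of ACVR1 was lost without Scramble replicate 1 (-0.22, adjusted p = 0.056) or 2 (-0.23, adjusted p = 0.052). Of the 4 other SMADs, 3 were tested with limma and 0 passed (median 0.02). These were SMAD1 (-0.20, adjusted p = 0.0616), SMAD5 (0.02, adjusted p = 0.833) and SMAD9 (0.11, adjusted p = 0.418), of which SMAD1 had a 95% interval without 0 (-0.39 to -0.02).

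Of 20 SMAD partners and regulators, 19 were tested, of which 5 rose and 3 fell (median 0.03). ZFYVE9, which anchors SMAD2 and SMAD3 near the receptor, rose by 0.58 (adjusted p = 6.37e-05) and was 8.58 to 9.92 FPKM in the depleted samples against 5.62 to 6.05 in Scramble. RNF111, a ubiquitin ligase that removes SKIL and SMAD7, rose by 0.58 (adjusted p = 0.0017), and TGIF1, a repressor of SMAD-driven transcription, rose by 0.46 (adjusted p = 2.05e-04). PMEPA1, an inhibitor that TGF-beta induces, fell by 0.90 (adjusted p = 4.38e-04). With Si-FIBP#1 alone it fell by 0.45 (adjusted p = 0.0389), which was lost under 12 of 18 alternatives, among them leaving out any Scramble or Si-FIBP#1 replicate or Si-FIBP#2 replicate 3 (-0.51 to -0.40, adjusted p of 0.0518 to 0.107). In the same list the SMAD repressor SKIL fell by 0.36 (adjusted p = 0.0064). PPM1A, a SMAD phosphatase, fell by 0.24 (adjusted p = 0.0392), which missed the threshold when any sample other than Scramble replicate 3 or Si-FIBP#2 replicate 2 was left out, at -0.24 to -0.18 and adjusted p of 0.0563 to 0.168. With length-weighted sums its value was -0.03. With Si-FIBP#2 alone PPM1A did not pass (-0.14, adjusted p = 0.277).

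Of 18 target genes that TGF-beta can induce, 15 were tested, of which 2 rose and 9 fell (median -0.36). SMAD7 is also among the 9 members, and SKIL, PMEPA1 and LTBP2 are also in the lists above. Beside these, 20.3% of all genes fell and 32.6% rose. Of the 15, 10 fell and 2 rose with Si-FIBP#1, where 19.9% of all genes fell and 27.8% rose. For Si-FIBP#2, 8 fell and 2 rose, beside 17.7% and 31.1% of all genes. The list was chosen with earlier results of these data known, so these counts are a description without a test. CCN2, a matricellular growth factor, had 49.91, 44.75 and 45.25 FPKM in Scramble, 16.61, 15.83 and 16.10 in the Si-FIBP#1 group, then 9.16, 11.25 and 7.99 in the Si-FIBP#2 group. The 3 groups did not overlap, and CCN2 fell by 1.47 (adjusted p = 4.83e-06) and 2.20 (adjusted p = 8.21e-07).

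ID1 and ID3 encode inhibitors of differentiation that respond most directly to BMP signalling and that TGF-beta can induce or repress. ID1 stood at 241.41 to 289.92 FPKM in Scramble, 78.26 to 123.60 in the Si-FIBP#1 group, then 56.58 to 67.94 in the Si-FIBP#2 group, and ID3 at 87.73 to 111.30, 44.17 to 64.10 and 21.67 to 25.56 FPKM. Their falls were 1.49 and 2.12 for ID1 (adjusted p = 4.49e-05 and 5.8e-06) and 0.89 and 2.06 for ID3 (adjusted p = 4.94e-04 and 3.72e-06). The genes that rose were CDKN2B (0.31, adjusted p = 0.0291) and LTBP2 (0.27, adjusted p = 0.00324). CDKN2B did not pass with Si-FIBP#2 alone (0.24, adjusted p = 0.125), and its rise was lost without Scramble replicate 2 or 3 or Si-FIBP#1 replicate 1 or 3, at 0.21 to 0.32 and adjusted p of 0.0518 to 0.139. It was also lost under median ratio scaling (0.21, adjusted p = 0.104) and with no filter (0.31, adjusted p = 0.0727).

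CDKN1A, the cell cycle inhibitor p21, is 1 of the 9 targets counted as lower with both siRNAs together (-0.44), and was singled out after its values were seen. It had 47.29, 47.55 and 49.63 FPKM in Scramble, 24.21, 21.68 and 21.96 in the Si-FIBP#1 group, then 52.21, 57.18 and 54.31 in the Si-FIBP#2 group. All Si-FIBP#1 samples were below Scramble and all Si-FIBP#2 samples were above it. CDKN1A fell by 1.06 with Si-FIBP#1 (adjusted p = 1.4e-06) and rose by 0.18 with Si-FIBP#2 (adjusted p = 0.0352). That rise was lost without any 1 Scramble replicate or without Si-FIBP#2 replicate 2 or 3, at 0.14 to 0.20 and adjusted p of 0.0518 to 0.0988, and under median ratio scaling it was 0.06.

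**Figure D3:**
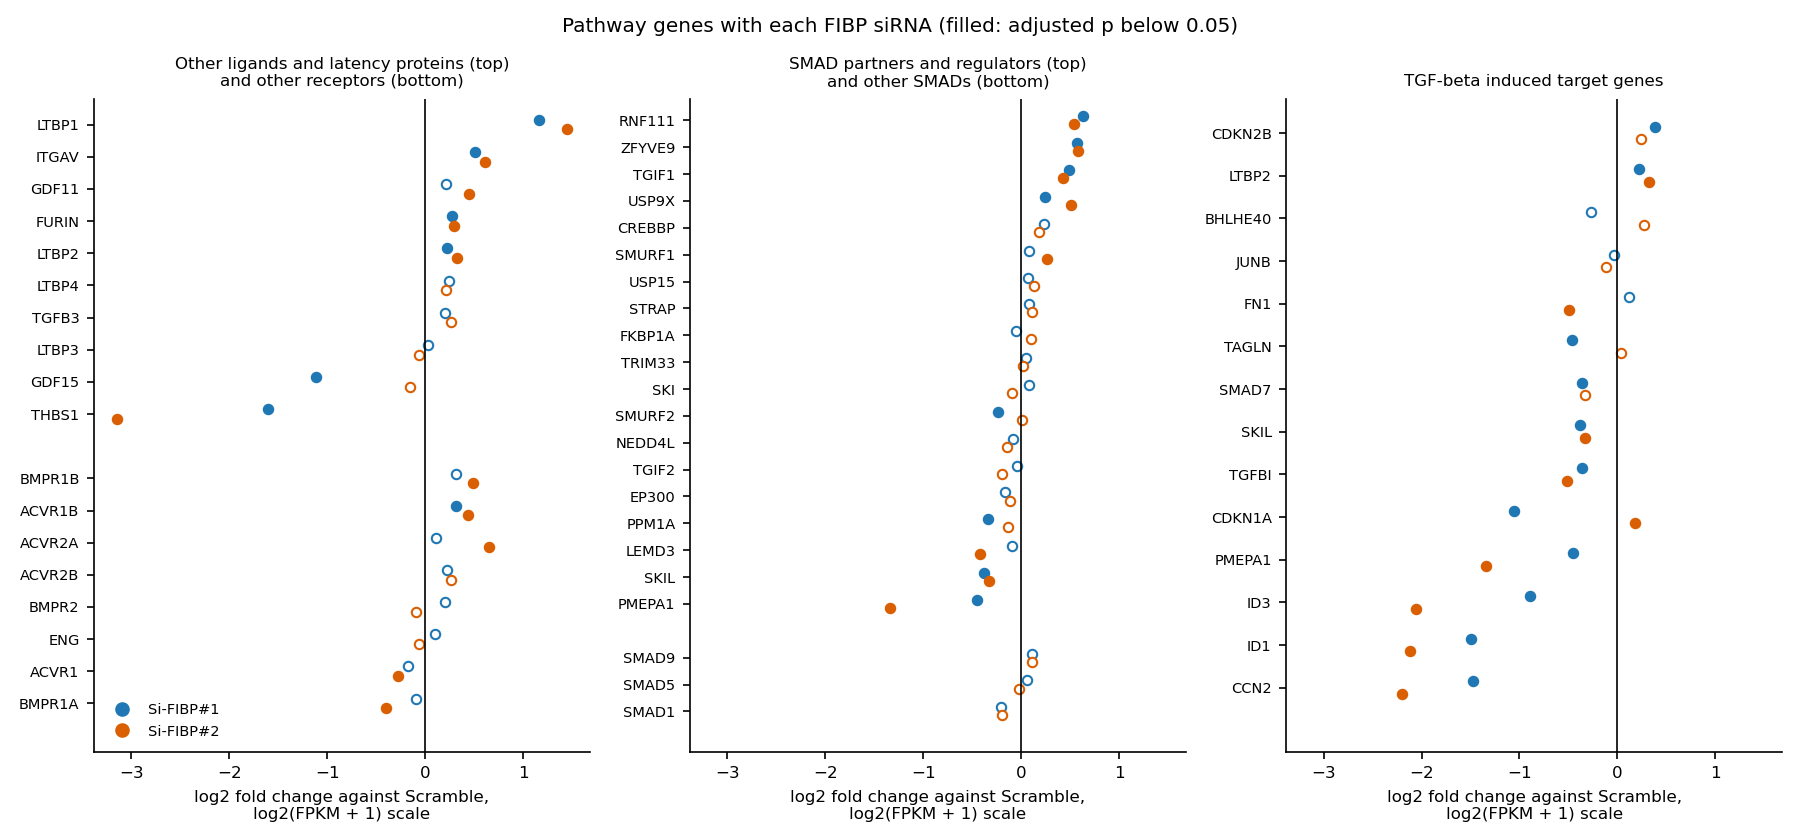
Log2 fold change against Scramble (horizontal axis, log2(FPKM + 1) scale) of tested genes of the 5 pathway lists, in blue for Si-FIBP#1 and orange for Si-FIBP#2, where filled points have an adjusted p below 0.05. Most target genes in the right panel lie left of 0, down to -2.20 for CCN2, and THBS1 in the left panel reaches -3.15.

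The genes whose levels followed those of TGFBR2 and TGFB1 most closely were found among the tested genes outside the members and lists by Pearson correlation of log2(FPKM + 1) over the 9 samples. For TGFBR2 these were BDH2 (r = 0.997), BCHE (r = 0.996) and ICE1 (r = 0.995). BDH2 had a mean of 4.79 FPKM in Scramble, 13.1 in the Si-FIBP#1 group, then 14.1 in the Si-FIBP#2 group. For TGFB1 they were GPS1 (r = 0.988), CTXN1 (r = 0.984) and GPAT3 (r = 0.980). The 9 points share libraries and fall into the 3 groups, and the values are a description without a test.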

How the data were processed

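RNA of H1299 cells was poly(A)-selected, made into libraries with a TruSeq kit and sequenced from both ends. For each of the 9 samples the authors deposited 1 value per transcript for annotated and assembled transcripts. The unit, FPKM, was inferred from the deposited values, since no source names it. HISAT2 and StringTie are named in the submitters' processing notes, without versions. The genome build and annotation release are not given in the sources used here. FPKM carry no counts, so no count test was run, and the depth was estimated from the value steps of single-transcript genes between 800 and 2000 nt long (mean cosine 0.724 to 0.788, where 1 means all whole). Precision was taken from the spread of the samples.

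The FPKM of a gene's transcripts were added. Genes that reached 1 FPKM in 3 or more of 9 samples entered 1 limma fit of all samples (limma 3.58.1, R 4.3.3; log2(FPKM + 1), moderated with a trend), and Benjamini-Hochberg adjustment covered all genes, or all transcripts in a separate fit. The 4 comparisons were each siRNA against Scramble, both against Scramble, and the siRNAs with each other. The thresholds for a call (2-fold, adjusted p below 0.05) follow the study. Alternatives were TPM, median ratio scaling, a pseudocount of 0.1, no filter, a 5 FPKM filter, fits of only the groups compared, annotated transcripts only, the replicate number as a block, leaving out each sample, and sums of transcripts weighted by length (chosen after seeing the data). The fit was also run on simulated data with independent noise. That setting differs from these data, and its outcome is not used as support here.

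The named genes are the 9 members, FIBP and, from each of the 5 lists, up to 3 genes that rose and 3 that fell most with both siRNAs together among those that passed. The most correlated genes were taken for the members with the largest rise and fall that passed. The members and lists were chosen with earlier results of these data known. 1 target gene, which stays in the counts of its list, and 1 marker gene are not reported here. Coordinates are from GENCODE release 29 and promoter sequences from RefSeq. Summaries used pandas 2.3.3 and numpy 2.4.6 under Python 3.11.15, and plots used matplotlib 3.10.9.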

Additional observations from a re-analysis of the deposited data

Results flagged for a closer look

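The responses to the siRNAs were compared directly with limma, as Si-FIBP#2 minus Si-FIBP#1 on the log2(FPKM + 1) scale. Among the 9 members, TGFB1 differed, by 0.30 (adjusted p = 0.0347), being higher with Si-FIBP#2. It fell with Si-FIBP#1 (-0.50) and did not pass with Si-FIBP#2 (-0.20, adjusted p = 0.0675). The difference of TGFB1 missed the threshold under 9 of 18 alternatives (adjusted p up to 0.119), and 15.4% of all genes passed in this contrast. Of the pathway list genes outside the members, 5 were higher and 9 lower with Si-FIBP#2 than with Si-FIBP#1. Of all 14985 genes tested, 1435 were higher and 869 lower. The lists had 10, 8, 3, 19 and 15 tested genes, some of them shared between lists. They were chosen with earlier results of these data known, so the counts are a description only. Of the list genes that differed, only those named above are given next. Lower with Si-FIBP#2 than with Si-FIBP#1 were THBS1, by -1.55 (adjusted p = 3.62e-04), ID3 by -1.16 (adjusted p = 8.43e-04), PMEPA1 by -0.89 (adjusted p = 0.00626), CCN2 by -0.73 (adjusted p = 0.00235), ID1 by -0.63 (adjusted p = 0.0211) and BMPR1A by -0.32 (adjusted p = 0.012). Higher with Si-FIBP#2 than with Si-FIBP#1 were CDKN1A, by 1.24 (adjusted p = 2.41e-05), GDF15, by 0.94 (adjusted p = 0.0064), and ACVR2A, by 0.54 (adjusted p = 0.00353). FIBP itself differed by 0.13 between the siRNAs (95% interval -0.28 to 0.54, adjusted p = 0.686). CDKN1A was chosen after its values were seen. With annotated transcripts alone the differences of ACVR2A (0.33, adjusted p = 0.227) and BMPR1A (-0.23, adjusted p = 0.0921) did not pass. Without Si-FIBP#1 replicate 2 the difference was -0.30 for BMPR1A (adjusted p = 0.0515), and without Si-FIBP#2 replicate 3 it was -0.59 for ID1 (adjusted p = 0.0757).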

How the results depend on the processing

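TGFBR2 kept its direction and stayed past the threshold with each siRNA under every alternative run, as did TGFBR1 with Si-FIBP#1 and TGFB1 with Si-FIBP#1. The counts depended more on the settings, and the cause was not tested. With a pseudocount of 0.1, 1498 genes were called for Si-FIBP#1 (848 in the main analysis), 1411 for Si-FIBP#2 (757), 1418 for both siRNAs (721) and 172 between the siRNAs (84), and 0 member transcripts were higher between the siRNAs (1). Leaving out single samples gave 75 to 132 calls between the siRNAs, the most without Si-FIBP#2 replicate 2. For members that fell with Si-FIBP#1 (2), no filter and annotated transcripts only gave 1, length-weighted sums 4, and leaving out single samples 1 to 4. For members that fell with Si-FIBP#2 (2), annotated transcripts only gave 1, median ratio scaling 4, length-weighted sums 6, and leaving out single samples 1 to 3. The shares of all genes that passed under the alternatives are not given here. The counts in this paragraph can therefore not be set against the shares of the main fit. Length-weighted sums, chosen after seeing the data, also gave 2 members that rose with Si-FIBP#2 (1). For members that fell with both siRNAs (3), median ratio scaling gave 5 and no filter 1. Between the siRNAs, 0 members were higher (1) with median ratio scaling, no filter, only the groups compared or annotated transcripts only, and 0 to 1 when single samples were left out, while 1 was lower (0) with median ratio scaling, 3 with length-weighted sums, and 0 to 1 when single samples were left out. Pathway genes that fell with Si-FIBP#1 (13) numbered 8 with no filter and 7 to 13 when single samples were left out. Those higher with Si-FIBP#2 than Si-FIBP#1 (5) numbered 9 in TPM, 3 with only the groups compared, 8 with length-weighted sums and 3 to 5 when single samples were left out. Leaving out single samples gave 1 to 4 member transcripts that fell with Si-FIBP#1 (3), 0 to 2 with Si-FIBP#2 (2) and 1 to 4 with both (4), 3 to 5 that rose with both (5), and 0 to 1 that were higher between the siRNAs (1).

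Some differences changed sign, none of them past the threshold after the change. GDF11 alone had passed before it, with Si-FIBP#2 (0.45, adjusted p = 0.0211) and with both siRNAs (0.33, adjusted p = 0.0402). Median ratio scaling turned SMAD2 (both siRNAs) to -0.044, and, between the siRNAs, SMAD7 to -0.003 and ZFYVE9 to -0.025. Length-weighted sums turned SMAD2 (both) to -0.038, SMAD4 (Si-FIBP#1) to 0.005, SMAD7 (between the siRNAs) to -0.014, PPM1A (Si-FIBP#2) to 0.06, and GDF11 to -0.229 (Si-FIBP#1), -0.01 (Si-FIBP#2) and -0.119 (both). When single samples were left out, values that changed sign ranged from -0.266 to 0.037 for TGFB2, -0.116 to 0.019 for SMAD2 and -0.109 to 0.004 for SMAD3 with Si-FIBP#2, from -0.104 to 0.003 for SMAD4 with Si-FIBP#1, and, between the siRNAs, from -0.031 to 0.148 for SMAD7, -0.031 to 0.169 for ITGAV, -0.036 to 0.106 for SKIL, -0.221 to 0.04 for RNF111, -0.031 to 0.063 for ZFYVE9 and -0.081 to 0.025 for ENST00000295754. Deviations of samples with the same replicate number correlated at -0.057 to 0.103 (1 of 9 above 0.1). Those of samples with different numbers correlated at -0.142 to 0.049. Values this weak cannot tell whether the replicate numbers mark a shared batch. With the replicate number as a block, members that fell with Si-FIBP#2 went from 2 to 4, since TGFB1 (adjusted p = 0.0373) and SMAD7 (adjusted p = 0.0209) passed, whereas PMEPA1 with Si-FIBP#1 (adjusted p = 0.0566) and CDKN1A with Si-FIBP#2 (adjusted p = 0.059) did not. For the other named genes the block changed no call. The tables hold FPKM without read numbers, so small differences in genes near 1 FPKM were limited by a depth that could only be estimated.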

Other observations

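Of the 18 target genes, 3 were too low to be tested. COL1A1, a fibrillar collagen, had 0.03 to 0.14 FPKM in Scramble, 0.35 to 1.15 in the Si-FIBP#1 group, then 0.70 to 1.59 in the Si-FIBP#2 group. SNAI2, a transcription factor of mesenchymal change, had 0.41 to 0.50 FPKM in Scramble, 0.44 to 0.72 in the Si-FIBP#1 group, then 0.90 to 1.95 in the Si-FIBP#2 group. ITGB6, an integrin subunit that takes part in activating latent TGF-beta, had 0.20 to 0.55 FPKM in Scramble, 0.21 to 0.42 in the Si-FIBP#1 group, then 0.38 to 0.88 in the Si-FIBP#2 group. The COL1A1 samples of both siRNAs were above Scramble, those of SNAI2 were above it in the Si-FIBP#2 group and overlapped it in the Si-FIBP#1 group, and the ITGB6 groups overlapped. Reporting these genes was decided after their values were seen.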
